A study of Mus musculus with 13 samples.

Results

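The islet identity factors Pdx1, Mafa, Nkx6-1, Nkx2-2, Neurod1, Isl1 and Pax6 were followed in the pancreas of young, old and old-OSKM mice. The 7 genes were taken by name, not by a measured value, and each matched 1 row, through its Entrez identifier, of the 23366 genes in the deposited table. RNA sequencing was available for 13 mice with 1 library each, of which 4 were young (13 weeks), 5 were old (55 weeks) and 4 were old-OSKM. The study's methods describe females of a reprogrammable strain, i4F-B, with a ubiquitous cassette of Oct4, Sox2, Klf4 and Myc (OSKM) that doxycycline switches on and that sits in the Pparg gene. The untreated young and old mice carried the same cassette and received no doxycycline. The old-OSKM mice drank doxycycline for 7 days and then recovered for 2 weeks. Their labels give an age of 58 weeks at collection, while the study's text gives 55 weeks, so the cassette, the drug itself and this difference in age cannot be told apart in any comparison with the old mice. The study describes the cassette as unevenly active over the cell types of the pancreas, which limits the model for the endocrine cells. Each value is a log2 RPKM, that is, a log2 read density corrected for the length of the transcript and the size of the library, and the table gives no read counts, so the counting error behind a value is unknown. Group values are given as means ± SD over the mice of the group, with n = 4, 5 and 4 for young, old and old-OSKM.

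Islets are clusters of hormone-secreting cells within a pancreas made up mostly of acinar cells, which secrete digestive enzymes. The transcription factors examined here bind the control regions of hormone genes, and of each other, and keep endocrine cells in their differentiated state. Pdx1 is needed for the pancreas to form and later activates the insulin genes in beta cells, Mafa activates insulin genes in mature beta cells, and Nkx6-1 keeps beta cells distinct from other endocrine cells. Nkx2-2, Neurod1, Isl1 and Pax6 act more broadly in endocrine cells, Neurod1 as a partner of E proteins at E-boxes, Isl1 as a LIM homeodomain factor with the cofactor Ldb1, and Pax6 as an activator of the glucagon and insulin genes.

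The sequences around the starts of 4 of these genes are shown because the genes cover the range of behaviour described further on. Pdx1 was the most abundant and least variable factor, Neurod1 the most variable, Nkx6-1 the one that followed other endocrine genes most closely, and Nkx2-2 the single member whose window held a match to a searched motif. Each window runs from 250 bases before to 50 bases after a RefSeq start in GRCm38.p6, the assembly also called mm10, and is written 5′ to 3′ on the strand of the gene. The windows are chr5:147269847-147270146 (plus strand) for Pdx1, chr2:79456587-79456886 (minus strand) for Neurod1, chr5:101664662-101664961 (minus strand) for Nkx6-1 and chr2:147186353-147186652 (minus strand) for Nkx2-2. Capitals mark matches to the searched motifs.
Pdx1: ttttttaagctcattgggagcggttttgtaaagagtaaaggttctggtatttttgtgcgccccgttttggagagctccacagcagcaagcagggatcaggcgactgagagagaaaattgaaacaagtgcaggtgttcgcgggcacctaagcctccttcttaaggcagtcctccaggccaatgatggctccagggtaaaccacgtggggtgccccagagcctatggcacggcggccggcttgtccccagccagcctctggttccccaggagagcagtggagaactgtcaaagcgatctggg
Neurod1: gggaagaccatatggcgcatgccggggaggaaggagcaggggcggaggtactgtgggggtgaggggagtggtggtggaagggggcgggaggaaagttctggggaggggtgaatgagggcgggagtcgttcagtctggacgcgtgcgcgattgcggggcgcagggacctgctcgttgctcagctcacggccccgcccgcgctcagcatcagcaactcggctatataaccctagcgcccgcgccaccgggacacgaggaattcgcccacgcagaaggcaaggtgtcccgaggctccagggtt
Nkx6-1: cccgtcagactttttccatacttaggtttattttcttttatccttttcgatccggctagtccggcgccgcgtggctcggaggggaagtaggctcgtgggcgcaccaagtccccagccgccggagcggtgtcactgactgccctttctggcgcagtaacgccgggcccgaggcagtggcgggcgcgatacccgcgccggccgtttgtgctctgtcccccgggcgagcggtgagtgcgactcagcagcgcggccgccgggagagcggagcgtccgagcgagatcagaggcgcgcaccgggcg
Nkx2-2: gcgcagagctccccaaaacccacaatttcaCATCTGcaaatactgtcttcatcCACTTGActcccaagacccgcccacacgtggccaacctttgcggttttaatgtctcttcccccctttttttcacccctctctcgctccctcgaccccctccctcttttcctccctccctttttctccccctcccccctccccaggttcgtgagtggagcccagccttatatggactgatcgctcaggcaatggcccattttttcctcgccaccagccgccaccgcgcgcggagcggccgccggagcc

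Windows were found for 6 of the 7 genes, with a pair of starts for Pax6, and Mafa was not matched. Motifs were searched on both strands, and their matches did not overlap. TAATTA, the core bound by many homeodomain proteins, was present in 5.29% of the 32851 windows of all genes and in none of the windows of these factors. CAGATG, an E-box of the kind Neurod1 binds, was present in 17.2% of all windows and, among these factors, in that of Nkx2-2. There it is read on the other strand as CATCTG and begins at -220 from the start. This window, from 147186353 to 147186652, lies inside the Nkx2-2 gene, which runs from 147176485 to 147195434. Its start is therefore not the outermost 5′ end of the gene. TNAAGTG, a core bound by NKX2 proteins, was present in 11.5% of all windows and also in that of Nkx2-2, as CACTTGA beginning at -197. TGCTGAC, the MAF half-site, was present in 4.67% of all windows and in none of these. Such matches describe letters and not binding, which was not measured here. The windows of Nkx6-1 and Isl1 were rich in G and C, at 67.3% and 69.0%, and held 40 and 37 CG dinucleotides, compared with a median of 52.7% and 7 over all windows. Those of Pdx1 were nearest to the median, with 55.3% G and C and 11 CG dinucleotides.

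Several libraries stood apart in the content of other cells. The defining acinar gene Ctrb1 had the same log2 RPKM in every mouse, at 11.1, which follows from the quantile normalization of the top ranks, and the 14 acinar genes had a mean between 7.85 and 7.98. Young replicate 3 had the highest values of Ppy (4.31), Pyy (3.05) and the gut genes Fabp1 (1.83) and Apoa4 (0.30). Its mean over 10 gut genes was the highest, at -2.43, compared with -2.85 in old-OSKM replicate 1. The other gut genes peaked in other mice, with Fabp2, Sis, Alpi and Cdx1 highest in old-OSKM replicate 1. Old-OSKM replicate 1 had the highest mean over 10 immune genes (1.15, compared with -1.25 to -0.22 in old mice), and the means over 10 stromal, vascular and fat genes were 1.09 and 1.08 in old-OSKM replicates 1 and 4, compared with -0.50 to -0.23 in old mice. The 4 factors of the cassette had log2 differences between old-OSKM and old mice after recovery from -0.12 for Myc to 0.096 for Pou5f1, and 0 of 4 was called or had a raw p under 0.05 in limma. Endocrine content was read from 10 pan-endocrine genes, the granule proteins and processing enzymes Chga, Chgb, Scg2, Scg3, Scg5, Pcsk2, Pcsk1n, Ptprn, Ptprn2 and Resp18. Their mean was 0.85, 0.80, 1.84 and 1.05 in young replicates 1 to 4, 1.01, 1.29, 1.98, 1.31 and 1.75 in old replicates 1 to 5, and -0.21, 0.86, 0.55 and 2.00 in old-OSKM replicates 1 to 4. The pan-endocrine level thus ran from its lowest to its highest value within the old-OSKM group, 4.64-fold apart. In whole pancreas, fewer endocrine cells and less RNA per endocrine cell cannot be told apart.

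All 7 factors had values in all mice, at levels around the middle of the table. RPKM accounts for transcript length, so levels can be compared between genes. On the log2 scale and over the 13 mice, the mean level was 0.80 for Pdx1, 0.40 for Nkx2-2, -0.27 for Pax6, -0.75 for Nkx6-1, -0.91 for Mafa, -1.29 for Neurod1 and -1.42 for Isl1. Pdx1 lay above 76.3% of all genes and Isl1 above 46.4%. As mean RPKM these levels were 1.76 for Pdx1 and 0.399 for Isl1, whereas the log2 RPKM of Ins2, a target of several of these factors, was between 5.50 and 8.05. Within mice, Pdx1 was higher than Nkx2-2 in 11 of 13 mice (mean log2 difference 0.41 ± 0.36, SD), Nkx2-2 higher than Pax6 in 12 (0.67 ± 0.49), and Pax6 higher than Nkx6-1 in 12 (0.48 ± 0.36). The lower part of the order was less firm. Nkx6-1 exceeded Mafa in 7 of 13 mice (0.15 ± 0.41), Mafa exceeded Neurod1 in 11 (0.38 ± 0.58) and Neurod1 exceeded Isl1 in 9 (0.13 ± 1.03). Each of these mean differences was smaller than its SD over mice.

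Pdx1 (Entrez 18609, chromosome 5 from 147270097 to 147275848) stayed within a narrow range in all groups. Its log2 RPKM was 1.07, 0.81, 0.89 and 0.70 in young replicates 1 to 4, 1.04, 0.62, 0.85, 0.62 and 0.86 in old replicates 1 to 5, and 0.55, 0.79, 0.86 and 0.79 in old-OSKM replicates 1 to 4. The highest mouse had 1.43 times the RPKM of the lowest, and the groups overlapped. Mafa (Entrez 378435, chromosome 15 from 75745501 to 75748321) was more spread. Its log2 RPKM was -0.47, -1.24, -0.23 and -1.36 in young, -1.12, -0.75, 0.13, -0.18 and -0.67 in old, and -1.95, -1.34, -2.34 and -0.28 in old-OSKM mice. Of the 4 old-OSKM mice, 3 lay below every old mouse, and replicate 4 lay within the old range. Nkx6-1 (Entrez 18096, chromosome 5 from 101659184 to 101664711) had log2 RPKM values of -0.69, -0.96, 0.082 and -0.62 in young, -1.17, -0.86, 0.24, -0.55 and -0.030 in old, and -2.35, -0.92, -1.56 and -0.40 in old-OSKM mice. Old-OSKM replicates 1 and 3 had the lowest values of the 13 mice, and the other two lay among the untreated mice.

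The broader endocrine factors showed a similar picture, with Nkx2-2 less spread than the others. Nkx2-2 (Entrez 18088, chromosome 2 from 147176485 to 147195434) had log2 RPKM values of 0.20, 0.66, 1.02 and 0.81 in young, 0.31, 0.48, 0.65, -0.014 and 0.39 in old, and -0.078, 0.31, -0.16 and 0.57 in old-OSKM mice. Young replicate 3 was the highest and old-OSKM replicate 3 the lowest, and all groups overlapped. Neurod1 (Entrez 18012, chromosome 2 from 79452637 to 79456636) had log2 RPKM values of -1.14, -1.47, -0.42 and -1.72 in young, -1.13, -0.86, -0.22, -0.65 and -0.54 in old, and -4.05, -1.09, -2.51 and -0.95 in old-OSKM mice. Old-OSKM replicates 1 and 3 stood below all others, and the highest mouse had 14.1 times the RPKM of the lowest. Whether the transcript was detected at all at -4.05 cannot be told from a table without counts. Pax6 (Entrez 18508, chromosome 2 from 105668896 to 105698410) had log2 RPKM values of -0.96, -0.66, 0.15 and 0.017 in young, -0.28, -0.13, 0.32, -0.012 and 0.27 in old, and -1.75, -0.23, -0.64 and 0.39 in old-OSKM mice. Its lowest and its highest value both belonged to old-OSKM mice, replicates 1 and 4. Isl1 (Entrez 16392, chromosome 13 from 116298270 to 116309688) had log2 RPKM values of -2.32, -2.08, -1.07 and -1.003 in young, -2.33, -1.37, -0.71, -1.22 and -0.81 in old, and -1.43, -1.68, -1.66 and -0.81 in old-OSKM mice. Young replicates 1 and 2 and old replicate 1 were the lowest for Isl1, and the old-OSKM mice lay inside the range of the old mice.

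**Figure D1:**
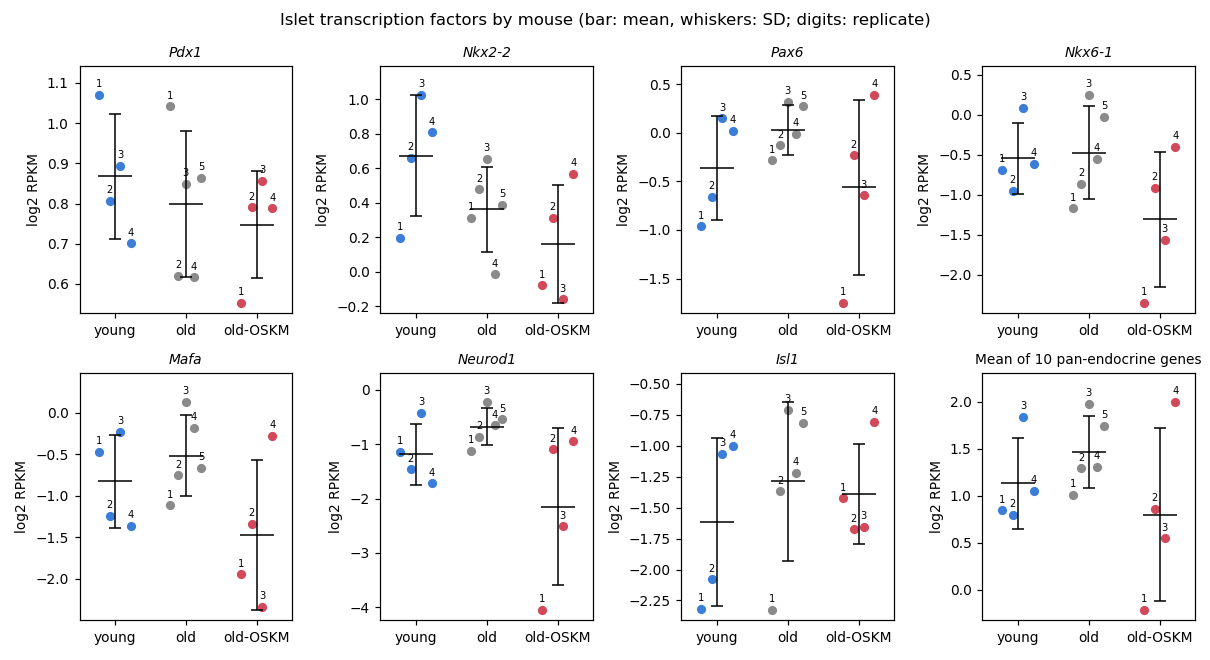
Log2 RPKM (vertical axes, each with its own scale) of the 7 factors and the mean of 10 pan-endocrine genes in young, old and old-OSKM mice. Points are single mice with their replicate number, horizontal bars are group means and whiskers are SD. Pdx1 spans 0.55 to 1.07, and old-OSKM replicate 1 is the lowest mouse for Neurod1 at -4.05.

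The first comparison asked whether these factors differ with age. Between old and young mice none of the 7 was called, a call being a fold above 1.5 together with a raw p below 0.01 in limma, against 0.886% of all genes. At a raw p under 0.05 the count was also 0, against 5.52% of all genes, and no adjusted p was below 1. The group means of Mafa were -0.83 ± 0.56 in young and -0.52 ± 0.49 in old mice, those of Neurod1 -1.19 ± 0.56 and -0.68 ± 0.34, and those of Pax6 -0.36 ± 0.53 and 0.033 ± 0.26. The log2 difference of old minus young was positive in 5 factors and negative in Pdx1 and Nkx2-2, with a median of 0.31 compared with 0.0012 over all genes. The precision differed widely between the factors. For Pdx1 the difference was -0.069 with a 95% confidence interval from -0.30 to 0.16, so a change by 1.5-fold lay outside the interval. For Neurod1 it was 0.50 with an interval from -0.70 to 1.71, and for Mafa 0.31 from -0.60 to 1.22, which leaves room for more than a doubling. Nkx2-2 had the smallest raw p (0.143), with a difference of -0.31 and an interval from -0.74 to 0.12.

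The second comparison asked whether the factors differ between old-OSKM and old mice. Again none of the 7 was called, against 0.753% of all genes, and 2 of 7 had a raw p under 0.05 in limma, against 8.07% of all genes. All 7 group means were lower in old-OSKM mice, with a median log2 difference of -0.59 compared with -0.039 over all genes, of which 63.1% were lower. The widest difference was in Neurod1, whose mean was -2.15 ± 1.45 in old-OSKM and -0.68 ± 0.34 in old mice. This log2 difference of -1.47 (standard error 0.55, 95% confidence interval from -2.68 to -0.26) had an adjusted p of 0.547 in limma. For Mafa, with means of -1.47 ± 0.90 and -0.52 ± 0.49, the difference was -0.96 (standard error 0.41, interval from -1.86 to -0.049), also with an adjusted p of 0.547 in limma. For Neurod1 and Mafa the direction held with any 1 mouse left out, while their calls depended on which mice were in the fit. For Pdx1 and Isl1 the sign itself depended on which mouse was left out. Without old-OSKM replicate 4, Mafa (-1.36) and Neurod1 (-1.87) were both called, each with an adjusted p of 0.601 in limma, without old-OSKM replicate 2, Neurod1 was called (-1.82, adjusted p = 0.381 in limma), and without old-OSKM replicate 1, Neurod1 stood at -0.84 and was not called (adjusted p = 0.769 in limma).

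The other factors differed less between old-OSKM and old mice. Nkx6-1 had a log2 difference of -0.83 (interval from -1.71 to 0.047) and Pax6 one of -0.59 (interval from -1.41 to 0.23). Leaving out old-OSKM replicate 1 brought these to -0.49 and -0.19. Nkx2-2 differed by -0.20 (interval from -0.63 to 0.23) and Isl1 by -0.10 (interval from -0.92 to 0.71). The interval of Pdx1, at a difference of -0.052, ran from -0.28 to 0.18, so that the factor at the head of the group was also the one bounded most tightly. With old-OSKM replicates 1 and 4 and young replicate 3 all left out, a choice made after the data were seen, Neurod1 differed by -1.12 and Mafa by -1.32, and neither was called.

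Old-OSKM and young mice were compared last, with 0 of 7 called against 0.625% of all genes and 1 of 7 at a raw p under 0.05 in limma, against 5.07% of all genes. That gene was Nkx2-2, with means of 0.16 ± 0.34 in old-OSKM and 0.67 ± 0.35 in young mice. Its log2 difference was -0.51 (standard error 0.21, 95% confidence interval from -0.97 to -0.058), with an adjusted p of 0.706 in limma. Without young replicate 1, the lowest young mouse, it was called at -0.67 (adjusted p = 0.841 in limma). Of the 7 factors 6 had lower means in old-OSKM mice, Isl1 being the exception at 0.22, and the median was -0.51 compared with -0.038 over all genes. The intervals of Neurod1 (-0.97, from -2.24 to 0.31), Nkx6-1 (-0.76, from -1.69 to 0.17) and Mafa (-0.65, from -1.60 to 0.31) all included 0. These differences share the old-OSKM mice with the second comparison and the young mice with the first. All 21 pairs of group ranges, over 7 factors and 3 comparisons, overlapped, as did those of nearly all genes: ranges without overlap were found in 2.71% of all genes between old and young, 1.73% between old-OSKM and old, and 1.90% between old-OSKM and young mice.

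The spread between mice of a group was large for most of these factors and small for Pdx1. The residual SD around the group means was 0.88 for Neurod1, larger than in 99.1% of all genes, and 0.66 for Mafa, 0.64 for Nkx6-1, 0.60 for Pax6 and 0.59 for Isl1, each larger than in at least 92.8%. It was 0.31 for Nkx2-2 and 0.16 for Pdx1, for which 41.7% of all genes had a smaller one. Within the old-OSKM group, replicate 4 exceeded replicate 1 by 8.55-fold in Neurod1, 4.41-fold in Pax6, 3.87-fold in Nkx6-1 and 3.18-fold in Mafa, compared with 1.57-fold in Nkx2-2, 1.53-fold in Isl1 and 1.18-fold in Pdx1. The hormone genes Ins1, Ins2 and Gcg differed between the same mice by 8.13-fold, 5.86-fold and 6.66-fold.

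This spread followed the pan-endocrine level in the same mice for most of the factors. When the mean of the 10 pan-endocrine genes was added to the fit as a covariate, 9.96% of the residual variance of Nkx6-1 was left, 16.2% of that of Pax6, 25.5% of Neurod1, 38.6% of Mafa, 45.4% of Nkx2-2 and 58.1% of Isl1. For Pdx1 95.6% was left. Relative to the pan-endocrine mean, the log2 level of Nkx6-1 was -1.68 ± 0.10 in young, -1.94 ± 0.21 in old and -2.11 ± 0.25 in old-OSKM mice. That of Pax6 was -1.50 ± 0.34, -1.43 ± 0.15 and -1.36 ± 0.25. Pdx1 relative to the same genes ran from -1.21 to 0.77, because its own level hardly moved. Among the pan-endocrine genes Ptprn2 was also nearly flat, between 3.01 and 3.57, and leaving it out of the mean (tried once the values were known) changed no call.

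**Figure D2:**
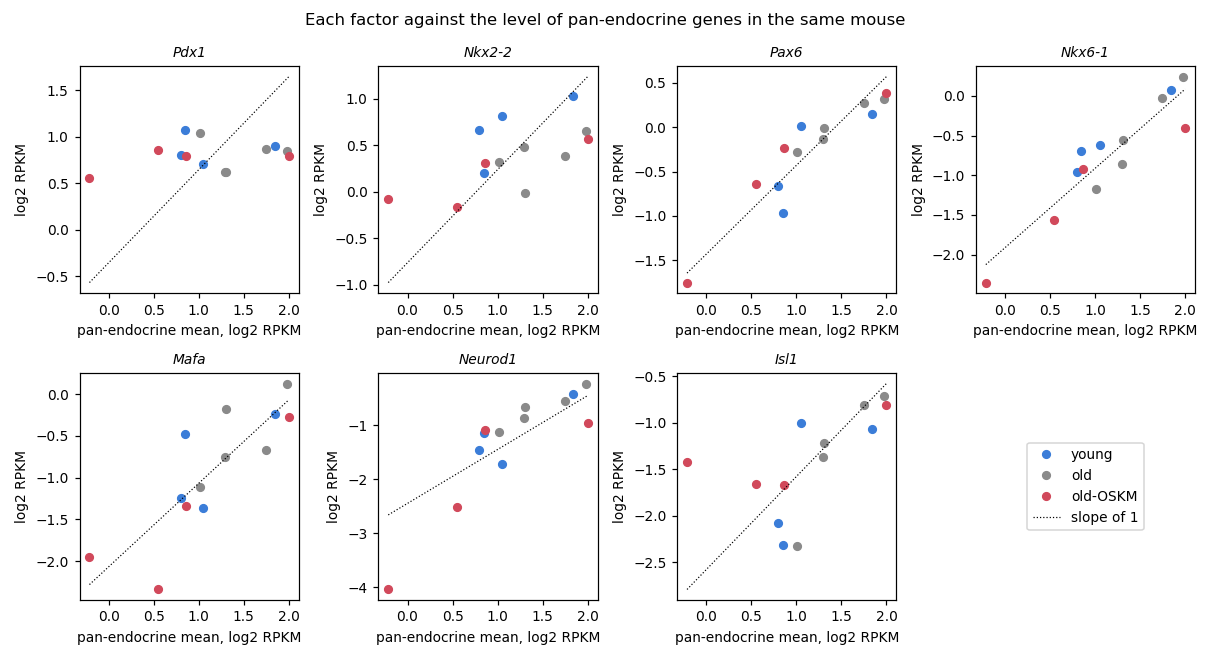
Log2 RPKM of each factor (vertical axes, each with its own scale) against the mean log2 RPKM of 10 pan-endocrine genes in the same mouse (horizontal axes). Points are the 13 mice coloured by group, and the dotted line has a slope of 1 through the means. Nkx6-1 and Pax6 lie along the line, with 9.96% and 16.2% of their residual variance left beside the pan-endocrine level, whereas Pdx1 stays between 0.55 and 1.07.

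With the pan-endocrine level as a covariate, the differences between old-OSKM and old mice were smaller for all factors except Isl1, and none was called. Mafa went from -0.96 to -0.40, Nkx6-1 from -0.83 to -0.18, Neurod1 from -1.47 to -0.65 and Pax6 from -0.59 to -0.0031, while Nkx2-2 went from -0.20 to 0.044 and Isl1 from -0.10 to 0.31. Neurod1 kept the smallest adjusted p of the 7 (0.393 in limma), with an interval from -1.38 to 0.076. In the same fit, other differences came out narrower in their intervals. Nkx2-2 was lower in old than in young mice by 0.43 on the log2 scale (a difference of -0.43, interval from -0.75 to -0.11, adjusted p = 0.603 in limma), and Nkx6-1 differed by -0.43 between old-OSKM and young mice (interval from -0.76 to -0.11, adjusted p = 0.547 in limma). Neither reached a fold of 1.5 or the raw p of a call. The covariate is itself measured in these RNAs, and whether it stands for endocrine cell number was not tested.

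**Figure D3:**
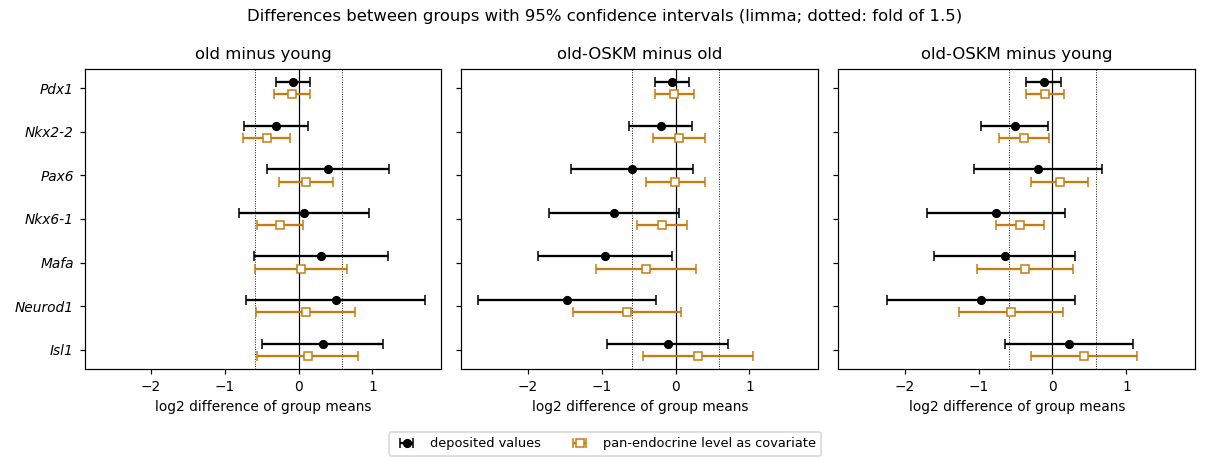
Log2 difference of group means (horizontal axes) for each factor in the 3 comparisons, with 95% confidence intervals from limma. Black circles are the deposited values, orange squares the fit with the pan-endocrine level as covariate, and dotted lines mark a fold of 1.5. The interval of Pdx1 lies inside the dotted lines in all 3 panels, and in the middle panel Neurod1 moves from -1.47 to -0.65.

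Other transcription factors of the endocrine lineage were examined as a list of 26, of which 1 was called in each comparison, against 0.886%, 0.753% and 0.625% of all genes. Insm1, a zinc finger factor of endocrine differentiation, fell in old-OSKM compared with old mice by 1.26 on the log2 scale (standard error 0.38, adjusted p = 0.547 in limma). Its log2 RPKM was -1.20, -0.90, -0.42, -0.91 and -0.50 in old and -2.30, -2.05, -2.72 and -1.11 in old-OSKM mice. Old-OSKM replicate 4 thus lay inside the old range, and with the pan-endocrine covariate the difference was -0.76 and not called. Pou3f4, also known as Brn4, a factor of alpha cells, was called lower in old (-0.73, adjusted p = 0.000303 in limma) and in old-OSKM mice (-0.79, adjusted p = 0.000206 in limma) than in young mice. Its level was low throughout, from -2.52 to -2.37 in young and from -3.20 to -3.15 in old mice. Pax4 and Adcyap1, also low, were similarly even in old mice, from -2.92 to -2.84 and from -3.86 to -3.81. In each of these genes old replicate 2 was the lowest old mouse. Old-OSKM replicate 4 was the lowest of all mice, at -3.35 for Pou3f4, -3.02 for Pax4 and -3.97 for Adcyap1. These small shifts were thus shared between the genes by library. Whether such even values lie above the lowest measurable level was not tested, as no counts are given. The calls of Pou3f4 were therefore not read as a change in alpha cells. The remaining 24 factors of the list were not called in any comparison, among them Rfx3, a regulator of cilia and islet genes (-0.29 for old-OSKM minus old, adjusted p = 0.547 in limma), and Prox1 (0.40). The median log2 difference of the list was 0.048 between old and young, -0.15 between old-OSKM and old, and 0.014 between old-OSKM and young mice.

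Proteins that work with the factors, and the genes that the factors act on, were examined in the same way. None of 12 partners and cofactors was called in any comparison, and their medians were 0.014, 0.011 and 0.058 in the 3 comparisons, with 3, 0 and 2 of them at a raw p under 0.05 in limma, against 5.52%, 8.07% and 5.07% of all genes. Their list mean was between 1.31 and 1.66 in all mice. Of the 7 hormone genes none was called or had a raw p under 0.05 in any comparison. All 7 hormones were lower in old-OSKM than in old mice, from -0.64 for Ppy to -0.055 for Gcg with a median of -0.49, and this median was 0.26 with the pan-endocrine covariate. Of 22 beta cell target genes, 20 were lower in old-OSKM than in old mice, against 63.1% of all genes. Their median was -0.25 and became 0.054 with the covariate. Ffar1, a fatty acid receptor of beta cells, was the 1 target gene called without the covariate. It was called between old and young and between old-OSKM and old mice, against 0.886% and 0.753% of all genes. Its log2 RPKM was -2.94, -1.73, -2.29 and -2.35 in young, -1.75, -1.66, -0.92, -0.89 and -1.14 in old, and -3.02, -1.84, -2.14 and -2.35 in old-OSKM mice. It rose by 1.06 from young to old mice (adjusted p = 0.469 in limma) and was lower by 1.07 in old-OSKM than in old mice (a difference of -1.07, adjusted p = 0.547 in limma), and both differences share the old mice. With the pan-endocrine covariate the first was 0.96 and still called, and the second was -0.87 and no longer called. In that fit 1 other target gene was called, lower in old than in young mice. Abcc8, a subunit of the potassium channel that controls insulin release, differed by -0.95 and Ucn3, a peptide of mature beta cells, by -0.80 between old-OSKM and old mice, without a call.

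**Figure D4:**
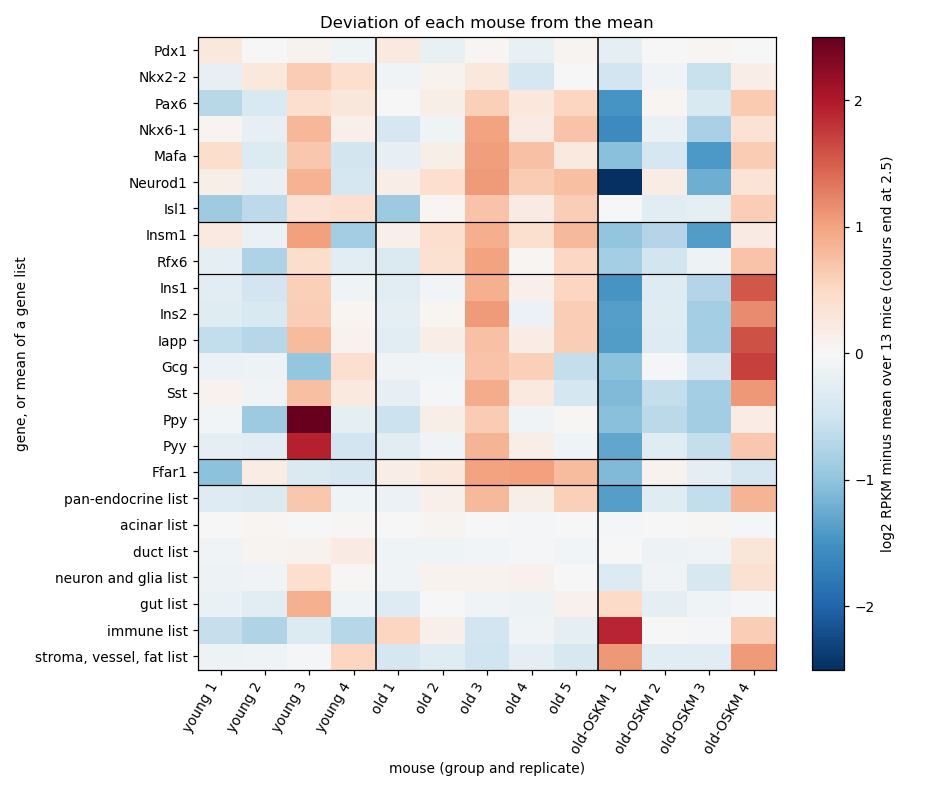
Deviation of each mouse (columns, by group and replicate) from the mean over 13 mice, in log2 RPKM, for the 7 factors, Insm1, Rfx6, hormones, Ffar1 and the means of 7 marker lists (rows). Red is above and blue below the mean, and colours end at 2.5. Old-OSKM replicate 1 is blue in most endocrine rows and red in the immune and stromal rows, old-OSKM replicate 4 and old replicate 3 are red in most endocrine rows, and the rows of Pdx1 and of acinar genes are nearly white.

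Markers of other cells also differed between old-OSKM and old mice. Of the 10 immune genes all had higher means in old-OSKM than in old mice, with 0 called and 2 at a raw p under 0.05 in limma (8.07% of all genes), and of the 10 stromal, vascular and fat genes 9 were higher and 3 were called, Col1a1 (0.88), Col1a2 (0.89) and Plin1 (1.53), against 0.753% of all genes. The log2 RPKM of Plin1 was -3.39, -3.44, -3.39, -2.67 and -3.41 in old and -0.15, -2.69, -2.63 and -1.46 in old-OSKM mice. Whether its low values in old mice lie above the lowest measurable level cannot be told without counts. With the pan-endocrine covariate none of Col1a1, Col1a2 and Plin1 was called, at 0.82, 0.94 and 1.26. The median of their list was 0.82 in that fit, compared with 0.76. The part of these marker genes in the lower levels of the islet factors was not tested. Old-OSKM replicate 1 had the highest immune mean and the lowest value of Pdx1, Nkx6-1, Neurod1 and Pax6. Old-OSKM replicate 4 had nearly the same stromal mean as replicate 1 and the highest value of Pax6. These are single mice, from which no link was drawn. The 14 neuron and glia genes, which matter because Isl1, Pax6 and Neurod1 are also used in neurons, had list means from -2.72 to -1.90 with 0 called between old-OSKM and old mice. Mice with identifiers of 641 and above (young replicates 3 and 4 and old replicate 5) formed a separate run of numbers, and within the other mice the differences between old-OSKM and old mice were -1.43 for Neurod1 and -0.99 for Mafa.

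Genes whose level was most like that of each factor over the 13 mice were ranked by Pearson r among 8408 genes with a mean log2 RPKM above 0. These coefficients describe mice that share endocrine content and the normalization. Nkx6-1 was closest to Peg3os (0.948), Peg3 (0.945) and G6pc2 (0.942), and Pax6 to Slc30a8 (0.933), G6pc2 (0.931) and Pcsk2 (0.929). G6pc2 encodes an islet glucose phosphatase, Slc30a8 the zinc transporter of insulin granules and Pcsk2 a prohormone convertase, so these leading genes were islet genes. Peg3 and Peg3os overlap on opposite strands, and reads of both cannot be told apart here because the use of strand is not stated. Peg3 was also near the top for Mafa (0.885, after Scg3 at 0.890 and before Pura at 0.872) and for Neurod1 (0.892, between Mia3 at 0.897 and Taf4 at 0.882). Nkx2-2 was closest to Cpe (0.882), the carboxypeptidase of hormone processing, followed by Slc40a1 (0.823) and Cipc (0.808). By residuals from the group means, none of these led for Nkx2-2, and its closest genes were Errfi1 (0.900), Pim3 (0.895) and Sgk1 (0.895). Isl1 was closest to Slc19a2 (0.814), Prnp (0.813) and Dnajb4 (0.798), and Pdx1 to Fam210a (0.841), Cox11 (0.840) and Brwd3 (0.824). Among the factors themselves, Nkx6-1 was the seventh most similar of all genes to Neurod1 (0.911), and Pax6 and Nkx6-1 stood at 0.856. Pdx1 was unlike the rest, with coefficients from -0.44 for Isl1 to 0.38 for Neurod1.

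Some transcripts overlap the factors, and their effect on these values was not tested. Nkx2-2os lies antisense to Nkx2-2 and shares 278 of its 2875 exon bases, with log2 RPKM values between -3.92 and -1.94, all below those of Nkx2-2. Its means were -2.15 ± 0.16 in young, -3.01 ± 0.63 in old and -2.60 ± 0.30 in old-OSKM mice, so the young mice were highest for both genes of the pair. Cerkl, on the same strand, shares 201 of the 2729 exon bases of Neurod1 and had values between -3.66 and -1.95. Cerkl and Neurod1 were at -2.46 and -2.51 in old-OSKM replicate 3, and at -2.34 and -4.05 in old-OSKM replicate 1. Plut and Pax6os1 lie antisense at Pdx1 and Pax6 but share 0 exon bases with them. Whether the estimation of the deposited values used strand is not given in the sources used here.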

How the data were processed

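RNA of whole pancreas was depleted of ribosomal RNA and sequenced with paired ends by the authors, who aligned reads to mm10 with STAR (version 2.3.0e per the labels), estimated RPKM with the R package Casper, and quantile normalized the log2 values per Entrez gene. These deposited log2 RPKM values were used unchanged, with no filter and no pseudocount. Once sorted, the columns of the 13 mice were within 0.0116 of each other. The correction for total reads that the study describes was not repeated, because the total of each sample is not given in the sources used here. Groups were taken from the labels. All 23366 genes were fitted with limma 3.58.1 (R 4.3.3; lmFit, eBayes), with the 3 groups in 1 fit, and p-values were adjusted over all genes by Benjamini-Hochberg. These p-values set a group difference against the spread between mice, which eBayes moderates toward that of all genes. A symbol was found for 23273 genes and for 156 of 156 genes of the lists, 1 of them by an older symbol. Positions and promoter windows came from RefSeq and GENCODE on GRCm38.p6, the assembly of mm10.

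The members, the gene lists and the tests were chosen with earlier results of these data known. Named genes are the 7 factors, the 3 genes most like each, the 3 genes of each list with the smallest raw p per comparison, all hormones, and the factors of the cassette. Rfx6 in the heat map was chosen after its values were seen. In simulated data for old minus young (23366 genes), 91 of 100 genes changed by 1 on the log2 scale and 97 of 100 changed by 2 were called, and 0.341% of 23166 unchanged genes were. The changed genes were drawn at random from all genes, each with its own spread. These shares therefore do not carry over to widely spread factors such as Neurod1 (residual SD 0.88). Alternatives were pseudocounts of 1 and 0.1, a filter at a mean log2 RPKM of 0, repeated quantile normalization, median centring, the 2 groups alone, trended robust eBayes, the run of identifiers, the pan-endocrine covariate and each mouse left out. Figures were drawn with matplotlib 3.10.9 in Python 3.11.15.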

Additional observations from a re-analysis of the deposited data

Results flagged for a closer look

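Among the 21 groups of values of the 7 factors, no mouse stood apart from the others of its group by Dixon's criterion. Of 72 groups tested over 24 quantities, 3 held such a mouse, and chance gives about 1 in 20. Pyy was at 3.05 in young replicate 3, which also had the highest values of Ppy and of the gut genes Fabp1 and Apoa4. Pou3f4 was at -3.20 in old replicate 2, within a group that spanned little. Old replicate 2 was also the lowest old mouse for Pax4 and Adcyap1. Plin1, a protein of fat droplets, was at -2.67 in old replicate 4.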

How the results depend on the processing

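Of 21 differences (7 factors, 3 comparisons), 6 changed sign under at least 1 of 25 settings, and none of these 6 was called in any setting. With the run of identifiers as a covariate, Isl1 between old-OSKM and old was 0.0776 and Pax6 between old-OSKM and young 0.12, and with only identifiers under 641 they were 0.0142 and 0.251. With the pan-endocrine covariate, Nkx6-1 between old and young was -0.25, Nkx2-2 and Isl1 between old-OSKM and old were 0.0441 and 0.310, and Pax6 between old-OSKM and young was 0.0993. The same differences without Ptprn2 were -0.259, 0.0365, 0.298 and 0.0742, and with young replicate 3 and old-OSKM replicates 1 and 4 left out Pdx1 between old-OSKM and old was 0.0250 and Pax6 between old-OSKM and young 0.0974. Both of these last alternatives were chosen after the data were seen. With 1 mouse left out in turn, the number called ranged from 0 to 2 between old-OSKM and old and from 0 to 1 between old-OSKM and young, and stayed at 0 between old and young. Ranges are given as lowest to highest: Nkx6-1 old minus young -0.11 to 0.28, Pdx1 old-OSKM minus old -0.097 to 0.0131, Mafa old-OSKM minus old -1.36 to -0.67, Neurod1 old-OSKM minus old -1.87 to -0.84, Isl1 old-OSKM minus old -0.36 to 0.0398, Nkx2-2 old-OSKM minus young -0.67 to -0.39, Isl1 old-OSKM minus young -0.00844 to 0.43, Pax6 old-OSKM minus young -0.51 to 0.20. The cause was not tested. The filter on low values left Pdx1 and Nkx2-2 alone among the 7 in the fit. By residuals from the group means, 9 of the 21 genes named as most like a factor were the same. No paired analysis was possible because the labels give no replicate numbers that groups share. Quantile normalization fixes the overall distribution, and without counts the precision of low values is unknown.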
